A study of Homo sapiens with 8 samples.

Results

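The 6 genes described here are the 2 corticoid receptors, *NR3C1* and *NR3C2*, and 4 classical glucocorticoid-induced genes, *FKBP5*, *TSC22D3*, *KLF9* and *SGK1*. They were listed by name, with no threshold on their values, out of 58051 genes counted in every library. All 6 had enough reads to be among the 17671 genes tested. RNA sequencing was done on 8 libraries of A375, a human melanoma cell line. The libraries came from 4 A375 lines, named WT1 to WT4 in the sample titles. Each line was held for 12 h in DMEM medium with 10% fetal bovine serum (FBS) or in the same medium without it, which gives 4 serum and 4 serum-free libraries. The lines carry no transgene, deletion or drug treatment according to the labels. The question asked of these genes was whether they differed between the conditions and between lines, since serum is the source of the steroid hormones that act on both receptors. No hormone was measured.

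The glucocorticoid receptor, encoded by *NR3C1*, and the mineralocorticoid receptor, encoded by *NR3C2*, are held in the cytoplasm by heat-shock protein chaperones until a steroid binds. The receptor then moves to the nucleus, where it binds DNA at response elements and raises or lowers the transcription of target genes. Cortisol activates both receptors and aldosterone activates the mineralocorticoid receptor. *FKBP5* encodes a co-chaperone that lowers the hormone affinity of the receptor and is itself induced by it, which closes a negative feedback loop. *TSC22D3* encodes GILZ, a leucine zipper protein known for its anti-inflammatory action. *KLF9* encodes a zinc-finger transcription factor, and *SGK1* a kinase that regulates ion transport and cell survival. *SGK1* is also known as a gene induced by serum, and several of these genes respond to signals other than steroids.

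*FKBP5* was the only member that passed the test between the conditions in the fit without a block, so its start sites are shown first. RefSeq (GRCh38.p14) gave 21 promoter windows for the 6 members, each running from 250 bases before a start site to 50 bases after it, all on the minus strand. Both *FKBP5* windows and 1 *SGK1* window are printed 5′ to 3′, with the half-site of the glucocorticoid response element (AGAACA or TGTTCT, on either strand) in capitals. The windows were chosen because *FKBP5* fell and because only these 2 genes held a half-site.

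FKBP5, chr6:35728534-35728833: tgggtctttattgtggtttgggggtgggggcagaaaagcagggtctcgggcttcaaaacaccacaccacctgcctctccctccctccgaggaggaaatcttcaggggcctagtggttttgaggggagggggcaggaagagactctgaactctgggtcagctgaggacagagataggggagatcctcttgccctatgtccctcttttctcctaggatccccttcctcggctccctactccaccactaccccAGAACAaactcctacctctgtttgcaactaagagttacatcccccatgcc
FKBP5, chr6:35688866-35689165: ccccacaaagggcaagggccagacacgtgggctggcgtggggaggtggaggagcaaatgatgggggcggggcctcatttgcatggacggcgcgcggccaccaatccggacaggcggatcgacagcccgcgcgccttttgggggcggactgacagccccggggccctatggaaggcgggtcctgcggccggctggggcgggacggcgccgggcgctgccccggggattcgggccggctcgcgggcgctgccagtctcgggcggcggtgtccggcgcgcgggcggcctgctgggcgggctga
SGK1, chr6:134177812-134178111: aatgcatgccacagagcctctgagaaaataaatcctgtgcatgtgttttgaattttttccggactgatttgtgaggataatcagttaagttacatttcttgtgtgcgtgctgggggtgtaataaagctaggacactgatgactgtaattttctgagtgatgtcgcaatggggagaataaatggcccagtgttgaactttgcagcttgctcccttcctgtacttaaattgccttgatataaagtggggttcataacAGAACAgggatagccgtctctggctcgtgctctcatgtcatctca

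The upstream *FKBP5* window held 1 half-site that begins at the first transcribed base, and the *SGK1* window held 1 that begins at base 6 after the start. The second *FKBP5* window had 76% G and C and no match. A half-site was present in 14.8% of the 35116 RefSeq windows and in 2 of the 21 windows of the members. The full palindromic element, AGAACA and TGTTCT with 3 bases between them, was found in 1 of all windows and in 0 of the 21. The site GTAAACA or TGTTTAC, bound by FOXO factors, was present in 3.42% of all windows and in 2 of the members' windows, 1 of *NR3C1* and 1 of *TSC22D3*. The cAMP response element TGACGTCA was in 1.85% of all windows and in 0 of the 21. The half-site overlaps the full palindrome, which contains it on each side. These are matches of letters in short windows and describe no binding.

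All 6 genes lie on the minus strand. In RefSeq (GRCh38.p14), *NR3C1* (ENSG00000113580) spans chr5:143277931-143435512 and *NR3C2* (ENSG00000151623) spans chr4:148078764-148445322. *FKBP5* (ENSG00000096060) lies at chr6:35573590-35728583 and *SGK1* (ENSG00000118515) at chr6:134169256-134318112. *KLF9* (ENSG00000119138) lies at chr9:70384604-70414657 and *TSC22D3* (ENSG00000157514) at chrX:107713221-107775988. The counts cover the exons of each gene as a whole and do not separate transcripts. For 5 of the 6 members no other gene overlapped an exon in a lifted GENCODE annotation. In *TSC22D3*, 1.43% of exonic bases were shared with *NCBP2L* on the opposite strand.

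Reads on genes ranged from 29759279 to 67101005 per serum library and from 37847737 to 73341551 per serum-free library. Reads that mapped to more than 1 place made up 22.7% in the WT1 serum library and 16.8% in the WT2 serum library, against 5.73% to 10.1% in the other libraries. Among melanocyte lineage markers, *MITF* was at 40.2 ± 3.89 CPM with serum (read counts scaled to the TMM-adjusted library size, mean ± SD, n = 4) and *S100B* at 18.9 ± 4.82 CPM. *SOX10* was listed at 0 reads in all 8 libraries and *PMEL* was low, below 1 CPM in each, so a defining marker of the lineage had no counted reads here. Whether this 0 comes from the cells or from the counting was not tested. *TYR*, *TYRP1*, *DCT* and *MLANA* had 5, 43, 354 and 397 reads over all libraries together, against 13920 for *MITF*. *PTPRC*, the defining marker of immune cells, was at most 0.0514 CPM in any library. The keratinocyte markers *KRT10* and *KRT14* had 14604 and 6469 reads, and the endothelial marker *KDR* had 10587. Summed per serum library, melanocyte markers came to 57.8 to 70.9 CPM, keratinocyte markers to 54.6 to 64.6 and endothelial markers to 12.9 to 41.8. These levels thus do not single out the melanocyte lineage. P-values compare 4 lines, all of A375, and a smaller number of cells of a kind cannot be told apart from less RNA per cell.

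The members spanned a wide range of levels. Levels per length are given as RPKM, reads scaled by the length of merged exons and by library size (mean ± SD, n = 4). *KLF9* was highest at 28.3 ± 7.29 RPKM, above 90.7% of the 17425 genes with a level, and its lowest library lay above the highest library of *NR3C1*. *NR3C1* followed at 12.5 ± 1.22 RPKM and *SGK1* at 7.99 ± 0.921 RPKM, and these did not overlap either. With the longest transcript as the length they overlapped, at 15.7 ± 1.53 RPKM for *NR3C1* and 14.5 ± 1.68 RPKM for *SGK1*, so that separation depends on the length used. *FKBP5* was at 3.25 ± 0.284 RPKM, close to the median of 2.75 RPKM over these genes. *TSC22D3* at 0.309 ± 0.184 RPKM and *NR3C2* at 0.143 ± 0.0261 RPKM were the lowest. They sat above 18.2% and 9.68% of genes, their serum ranges did not overlap, and with the longest transcript as the length *TSC22D3* came to 0.674 RPKM. Without serum the order was the same, with *NR3C2* at 0.226 ± 0.048 RPKM and *TSC22D3* at 0.313 ± 0.0508 RPKM overlapping each other.

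**Figure D1:**
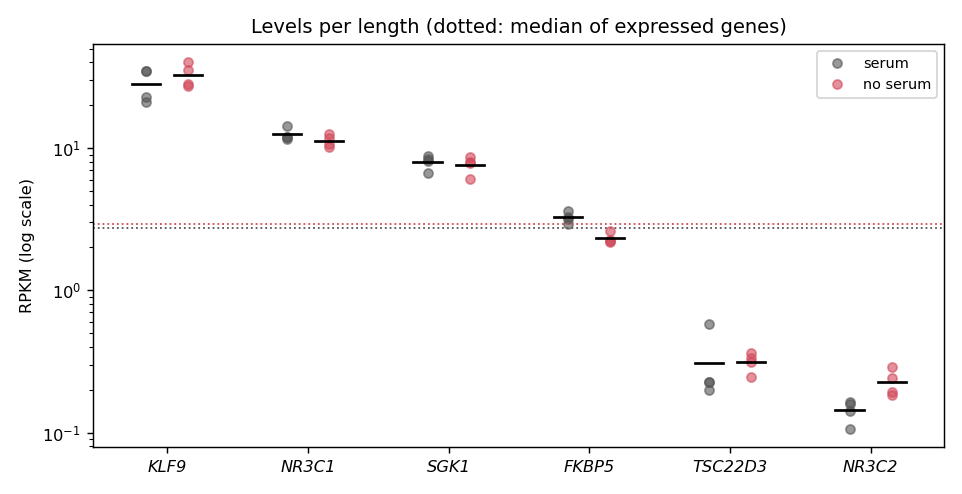
RPKM of the 6 members on a log axis, 1 point per library, with serum in grey and without serum in red, black bars at the mean of 4 libraries and dotted lines at the median of the genes with a level. *KLF9* lies highest in both conditions, *FKBP5* crosses the median between the conditions, and *TSC22D3* and *NR3C2* lie lowest.

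The RNA of the glucocorticoid receptor was more abundant than that of the mineralocorticoid receptor in every library. The ratio of *NR3C1* to *NR3C2* in RPKM with serum was 87.1, 84.1, 75.8 and 109 in WT1 to WT4. Without serum it was 68.6, 55.0, 42.2 and 40.6 in the same lines. The ratio was lower without serum in each line and the conditions did not overlap, and in WT2 to WT4 *NR3C2* moved further than *NR3C1*. The level of *NR3C2* rests on 20 to 107 reads per library.

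*NR3C1*, the glucocorticoid receptor, was at 131, 110, 110 and 107 CPM with serum in WT1 to WT4 and at 115, 97.8, 93.2 and 107 CPM without it. The conditions overlapped, the level was lower without serum in 3 lines, and WT4 was level with its serum library. The log2 fold change of serum-free over serum was -0.15 (SE 0.09, 95% interval -0.35 to 0.05), with adjusted p = 0.256 in the edgeR quasi-likelihood test, Benjamini-Hochberg adjusted. With the line as a block, the same log2 fold change of -0.15 had adjusted p = 0.0439 in edgeR. With the block and a correction for the GC content of genes it was 0.0035, with adjusted p = 0.954 in edgeR. The block call was lost without WT1, WT2 or WT3 in turn (adjusted p = 0.183, 0.153 and 0.168 in edgeR), and without WT4 it was -0.20 (adjusted p = 0.000555). Without the block, the value was -0.081 (adjusted p = 0.563 in edgeR) without the WT1 serum library, and ran from -0.21 to -0.081 with each library or line left out. Whether this gene passed the threshold depended on the fit.

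*NR3C2*, the mineralocorticoid receptor, was at 1.09, 0.943, 1.05 and 0.704 CPM with serum and at 1.21, 1.28, 1.59 and 1.90 CPM without. Every serum-free library lay above every serum library, which 12.6% of all genes tested also showed. The log2 ratio ran from 0.15 in WT1 to 1.43 in WT4. The WT4 serum library held the fewest reads of this gene, 20, for which counting error alone allows 0.43 to 1.09 CPM (exact Poisson, 95%). The log2 fold change was 0.65 (SE 0.24, interval 0.12 to 1.18) and did not pass the threshold in edgeR (adjusted p = 0.0713), nor with the line block (0.63, adjusted p = 0.0527). It passed with the block and the GC correction (0.67, adjusted p = 0.0354 in edgeR). Without WT4 the value was 0.41, the lowest of the fits that omitted a library or line, and without WT1 it was 0.81, the highest.

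*FKBP5*, the co-chaperone of the feedback loop, fell without serum. It was at 38.6, 33.8, 34.6 and 31.3 CPM with serum in WT1 to WT4 and at 27.7, 23.7, 23.3 and 23.9 CPM without. Every serum-free library lay below every serum library, as for 15% of genes tested. The mean moved from 34.6 ± 3.02 to 24.6 ± 2.04 CPM (SD, n = 4), a fitted fold of 0.712. The log2 fold change was -0.49 (SE 0.09, interval -0.69 to -0.29), with adjusted p = 0.00496 in the edgeR quasi-likelihood test, Benjamini-Hochberg adjusted. The per-line log2 ratios were close, from -0.57 in WT3 to -0.39 in WT4. With the block and GC correction the value was -0.38 (adjusted p = 4.16e-05 in edgeR). The call held under every alternative that was run, including each library and each line left out, where the highest adjusted p was 0.0422.

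**Figure D2:**
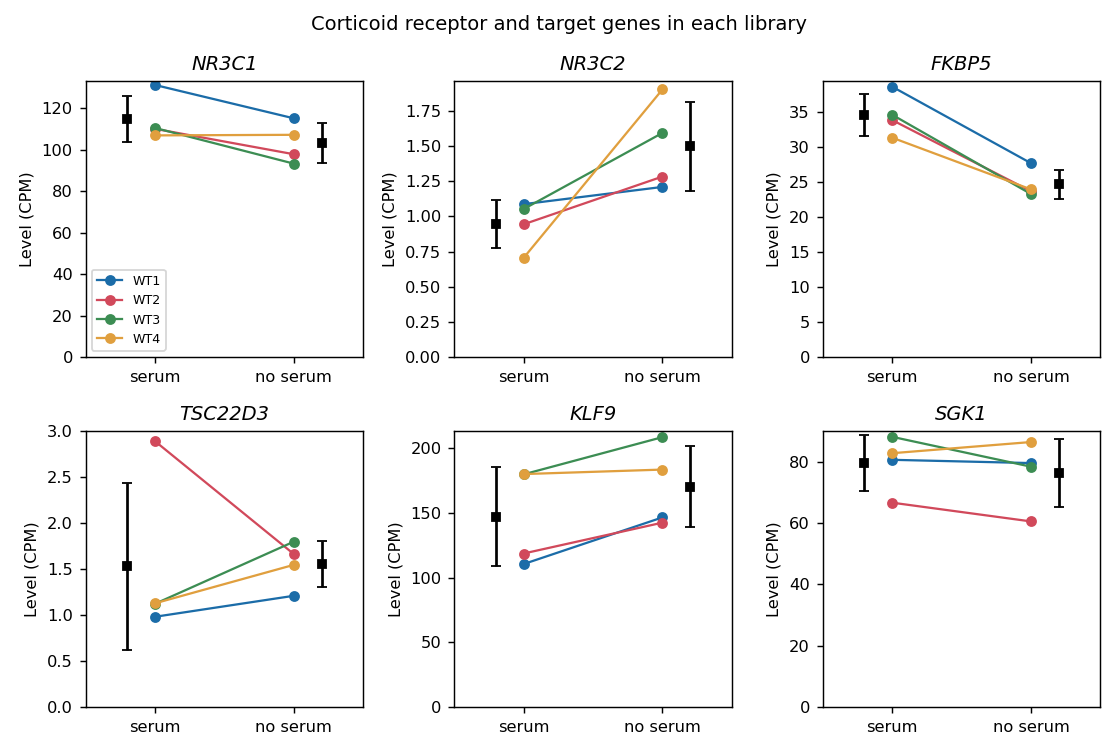
Levels of the 6 members in CPM, 1 panel per gene with its own axis from 0, in serum and without serum, 1 coloured line per A375 line, and black squares with bars at the mean ± SD of 4 libraries. *FKBP5* is lower without serum in all 4 lines with no overlap, *NR3C2* is higher in all 4 on few reads, and the WT2 serum library stands apart for *TSC22D3*.

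*KLF9*, the zinc-finger factor, was at 110, 119, 180 and 180 CPM with serum in WT1 to WT4 and at 146, 142, 209 and 183 CPM without. It was higher without serum in each line, but the conditions overlapped, with both libraries of WT3 and WT4 above those of WT1 and WT2. In edgeR without the block, the log2 fold change was 0.21 (SE 0.20, interval -0.24 to 0.66) with adjusted p = 0.476. With the line block it was 0.23 (SE 0.06, interval 0.09 to 0.36) with adjusted p = 0.00806, and with the GC correction as well adjusted p = 0.011. The WT4 ratio was the smallest, 0.03, and WT1 the largest, 0.41. Without the block and leaving out 1 library or line in turn, the value ran from 0.092 (without the WT3 serum-free library) to 0.32 (without the WT3 or WT4 serum library), with 0.093 and 0.12 without the WT1 and WT2 serum libraries, and did not pass in any of these fits. Under the block the call was lost without WT1 (0.17, adjusted p = 0.1 in edgeR) and without WT3 (0.22, adjusted p = 0.0656).

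*SGK1*, the kinase, showed no difference past the threshold in any fit. It was at 80.7, 66.7, 88.2 and 82.9 CPM with serum and at 79.7, 60.6, 78.5 and 86.5 CPM without. The log2 fold change was -0.06 (SE 0.12, interval -0.33 to 0.21), with adjusted p = 0.746 in edgeR. The block narrowed it to -0.19 to 0.06 (adjusted p = 0.385 in edgeR). The sign turned positive with upper-quartile scaling (0.0048) and with the block and GC correction (0.05), so no direction is given for this gene.

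*TSC22D3*, which encodes GILZ, varied most between libraries. It was at 0.981, 2.89, 1.12 and 1.13 CPM with serum and at 1.21, 1.66, 1.80 and 1.55 CPM without, on 32 to 190 reads per library. The WT2 serum library stood above all others, and counting error does not reach them (2.49 to 3.33 CPM, exact Poisson, 95%). The level was higher without serum in WT1, WT3 and WT4 (log2 ratios 0.30, 0.68 and 0.46) and lower in WT2 (-0.80). The fitted log2 fold change was 0.0034 (SE 0.36, interval -0.79 to 0.80), with adjusted p = 0.995 in edgeR. Without the WT2 serum library it was 0.53 (adjusted p = 0.158 in edgeR), so 1 library set the value. WT2 was also the line with the most reads, and its serum library had 16.8% of reads mapped to several places. The part of these in the result was not tested.

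**Figure D3:**
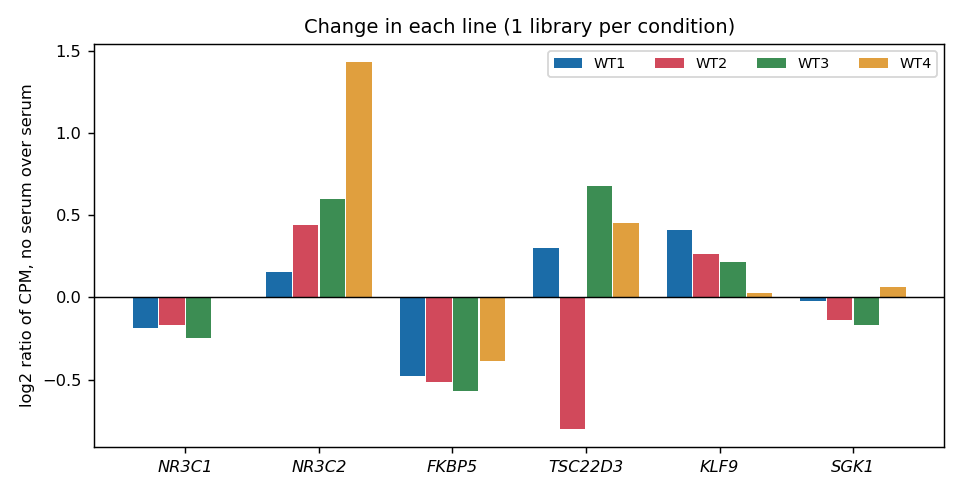
Log2 ratio of CPM, serum-free over serum, for each member and line (each bar rests on 1 library per condition). *FKBP5* is below 0 and *NR3C2* and *KLF9* are above 0 in all 4 lines, and the bars of *TSC22D3* point both ways.

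Over the members, 1 of 6 was called lower and 0 higher, against 14% of all genes called lower, 11.1% called higher and 25.1% in either direction in the same edgeR fit. At an unadjusted p under 0.05, 1 member was higher (*NR3C2*), and DESeq2 and voom called 0 higher. With the block, 2 were called lower (*NR3C1*, *FKBP5*) and 1 higher (*KLF9*), against 22.4%, 23.2% and, in either direction, 45.7% of all genes. With the block and GC correction, 1 was called lower (*FKBP5*) and 2 higher (*NR3C2*, *KLF9*), against 24.7%, 21.8% and, in either direction, 46.4%. The conditions did not overlap for 2 of 6 members, *FKBP5* and *NR3C2*, against 27.5% of genes tested. In 3 members the level differed in 1 direction in all 4 lines, lower for *FKBP5* and higher for *NR3C2* and *KLF9*, as it did for 55.4% of genes tested. The members called lower, 1 of 6, were thus near the background share, and the 4 target genes did not share a direction. Upper-quartile scaling moved the share of higher genes among all called from 44.1% to 57.6%, and *FKBP5* stayed called lower under it.

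**Figure D4:**
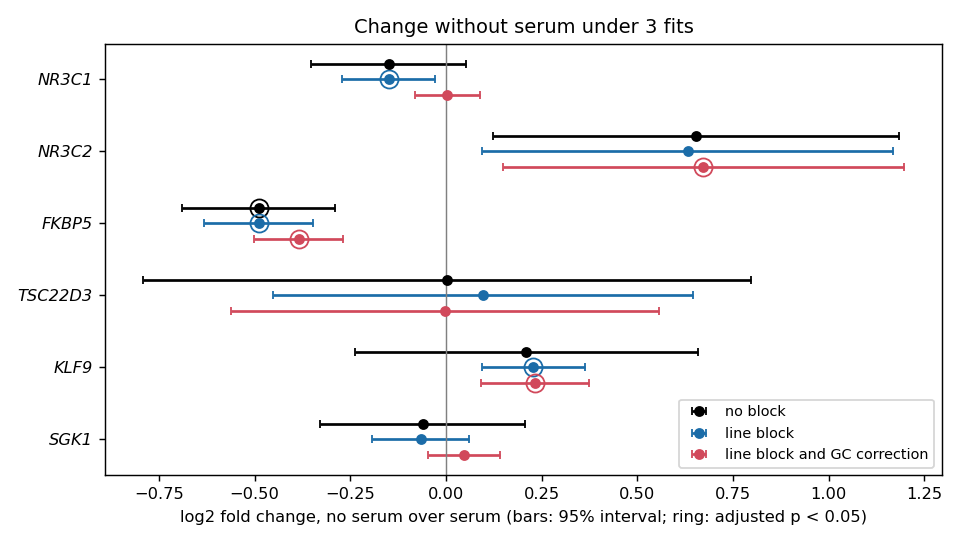
Log2 fold change, serum-free over serum, with 95% intervals for the 6 members in edgeR without a block (black), with the line as a block (blue) and with the block and GC correction (red). Rings mark adjusted p below the threshold of 0.05, and *FKBP5* is the member ringed in all 3 fits.

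The level of 2 members differed between lines. In edgeR's quasi-likelihood test of the line, given the condition, 22.9% of all genes passed, and 2 of the 6 members did. *KLF9* had a log2 range of 0.60 between its highest and lowest line (adjusted p = 0.000126 in edgeR), with WT3 and WT4 above WT1 and WT2 in both conditions. *SGK1* had a range of 0.42 (adjusted p = 0.00642 in edgeR), with WT2 the lowest in both conditions, and without WT2 the range was 0.08 (adjusted p = 0.824). *NR3C1* (range 0.27, adjusted p = 0.065), *FKBP5* (0.25, 0.178), *TSC22D3* (1.06, 0.134) and *NR3C2* (0.24, 0.931) did not pass in edgeR. The range of *FKBP5* was 0.052 without WT1 and that of *TSC22D3* 0.39 without WT2. *NR3C1* passed without WT4 (adjusted p = 0.000769) and with DESeq2 (0.0487), and *TSC22D3* passed with no filter on low counts (adjusted p = 0.0317 in edgeR). Whether lines responded differently was not tested, since each has 1 library per condition.

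The list of chaperones and co-chaperones of the receptor held 11 genes, all tested. Of these, 9 were called lower and 0 higher in edgeR, DESeq2 and voom. The median log2 fold change of the 11 was -0.45, against 0.03 over all genes. Of all genes tested, 14% were called lower. *HSPA8*, a constitutive HSP70 protein, was at 4799 ± 396 CPM with serum and 2338 ± 347 CPM without (SD, n = 4), which is -1.04 on the log2 scale. *HSP90AA1*, an HSP90 that binds the receptor directly, had -0.82, and *HSP90AB1*, the other cytosolic HSP90, had -0.32. *PTGES3*, which encodes the p23 co-chaperone of the mature complex, had -0.66, *PPID* -0.59 and *STIP1*, the adaptor between HSP70 and HSP90, -0.53. *FKBP4*, the *FKBP5* relative that favours receptor transport, had -0.45, close to the -0.49 of *FKBP5*. *DNAJB1* (-0.39) and the phosphatase *PPP5C* (-0.31, kept in 6 of 12 leave-out fits, which omit 1 library or both libraries of a line) were the others called. *ST13* (-0.16, adjusted p = 0.101) and *BAG1* (0.006, adjusted p = 0.968) did not pass in edgeR. *ST13* passed with the line block (adjusted p = 0.0178 in edgeR) but not with the GC correction as well (0.721). The count was 8 or 9 of 11 in each leave-out fit, and 9 under RLE and upper-quartile scaling. A gene on the other strand overlaps 56.7% of the exonic bases of *PPID*, so its counts are less certain.

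Coregulators, which link the DNA-bound receptor to the transcription machinery, were called in both directions. Of 10 tested, 5 rose and 1 fell in edgeR, against 11.1% and 14% of all genes, with a median log2 fold change of 0.21. The corepressor *NRIP1* rose from 121 ± 13.7 to 172 ± 16.6 CPM (0.51). The coactivators *NCOA3* (0.38) and *NCOA2* (0.33) and the acetyltransferase *EP300* (0.24) were among the others that rose. *MED1*, a Mediator subunit, fell (-0.20). *NCOA1* (0.18), *CREBBP* (0.09), *NCOR1* (-0.02) and *SMARCA4* (-0.17) did not pass in edgeR, while *NCOA1* (adjusted p = 0.0356) and *SMARCA4* (0.0253) passed with the line block. In the leave-out fits *NCOA2* kept its call in 5 of 12, *MED1* in 4 and *EP300* in 2. The count of higher coregulators ranged from 0 (without WT1) to 6 (without the WT4 serum library) over the leave-out fits, and under upper-quartile scaling 6 were called higher and 0 lower.

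Of 32 other glucocorticoid-induced genes, 24 had enough reads to be tested, and 4 rose and 0 fell in edgeR, with a median log2 fold change of 0.07 (2 were lower at an unadjusted p under 0.05, and 0 in DESeq2 and 1 in voom were called lower). Of all genes, 11.1% were called higher and 14% lower. *KLF15*, a metabolic transcription factor, rose from 4.71 ± 1.16 to 10.6 ± 1.27 CPM (1.17, adjusted p = 0.00265 in edgeR). *GLUL*, glutamine synthetase, rose from 9.84 ± 1.59 to 16.9 ± 2.91 CPM (0.78, adjusted p = 0.0064 in edgeR). The metallothionein *MT2A* (0.56) and the cell-cycle inhibitor *CDKN1C* (0.74) also rose, the latter named after its values were seen. *KLF15* and *GLUL* kept their call under every alternative, while *MT2A* kept it in 3 and *CDKN1C* in 4 of the 12 leave-out fits. *MT2A* also lost its call with the block and GC correction (0.47, adjusted p = 0.0763 in edgeR). With the line block, 8 rose and 4 fell, against 23.2% and 22.4% of all genes, and with the GC correction as well 5 rose and 4 fell, against 21.8% and 24.7%. The leave-out fits gave 2 to 5 higher, with 2 without the WT1, WT2 or WT3 serum library, without the WT1 or WT4 serum-free library, and without WT1, WT2 or WT3 as a whole.

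Of 18 genes that glucocorticoids are known to repress, 12 were tested, and 1 rose and 2 fell in edgeR, with a median of -0.01. These counts are near the 11.1% and 14% of all genes called higher and lower. *MMP1*, a collagenase, rose from 0.754 ± 0.198 to 1.73 ± 0.479 CPM (1.20). The cytokines *IL11* (9.10 ± 1.21 to 6.17 ± 0.536 CPM, -0.56) and *CXCL8* (9.04 ± 3.40 to 3.41 ± 1.38 CPM, -1.41) fell, and *CXCL8* kept its call in 5 of the 12 leave-out fits. With the block, 3 rose and 4 fell, against 23.2% and 22.4% of all genes. Among these, *CXCL1* was lower (-1.91, adjusted p = 1.48e-08 in edgeR) and *CCL2* higher (1.22, adjusted p = 3.75e-05). Without the block neither passed in edgeR (adjusted p = 0.176 and 0.194), and both were named after their values were seen. The leave-out fits gave 0 to 4 lower, with 0 without WT1 or WT2 and 4 without the WT2 serum-free library. Genes of this list were called in both directions, and *TNF* and *POMC* were listed at 0 reads in all 8 libraries.

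**Figure D5:**
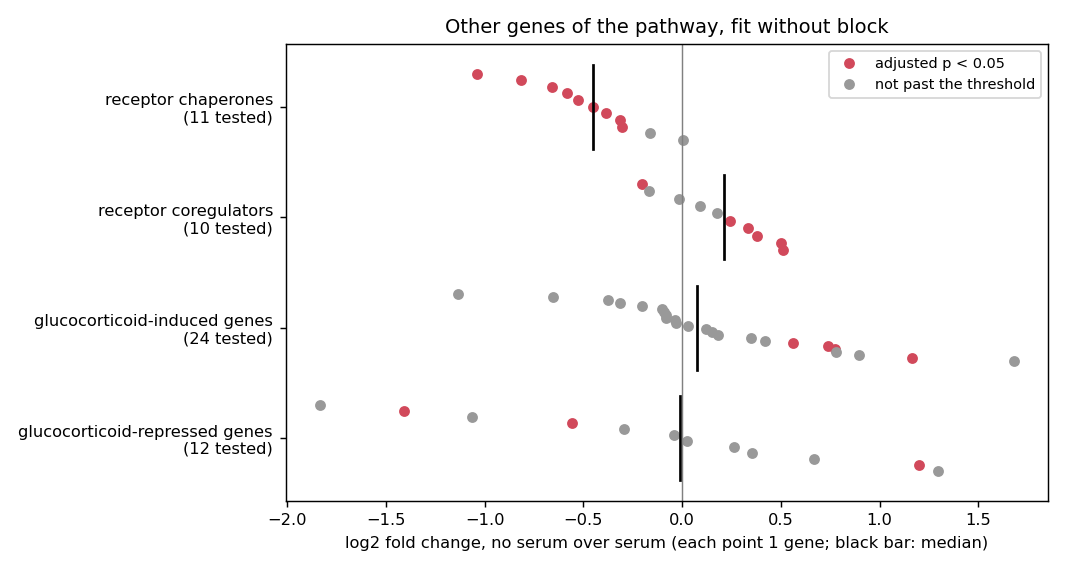
Log2 fold change, serum-free over serum, of each tested gene in 4 lists in edgeR without a block, with red points past the threshold and a black bar at the median of the list. The chaperones lie mostly below 0, the coregulators mostly above 0, and the induced and repressed target genes on both sides.

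Genes that make or inactivate steroids were mostly low. *HSD11B1*, which regenerates cortisol from cortisone, and *AKR1D1* were listed at 0 reads in all libraries. *HSD11B2*, which inactivates cortisol, was at 0.40 ± 0.128 CPM with serum and 0.494 ± 0.174 CPM without. Of 10 listed, 5 were tested and 1 passed in edgeR, against 25.1% of all genes in either direction. That gene, *H6PD*, which supplies the cofactor of HSD11B1, rose from 45.4 ± 6.75 to 83.4 ± 6.53 CPM (0.88, adjusted p = 0.00116) and kept its call under every alternative. *SRD5A1*, a steroid reductase (-0.19), and *ABCB1*, a steroid exporter (0.13), did not pass in edgeR. With the line block *SRD5A1* passed (adjusted p = 0.0491), and with the GC correction as well *ABCB1* did (0.0378) and *SRD5A1* did not (0.202).

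Among other steroid and thyroid receptors, 6 of 7 were tested and the vitamin D receptor *VDR* rose (0.37, adjusted p = 0.036 in edgeR, kept in 4 of 12 leave-out fits), 1 of 6 against 11.1% of all genes. The thyroid receptor *THRB* was at 9.95 ± 3.95 and 19.9 ± 6.57 CPM (0.99, adjusted p = 0.0683 in edgeR) and passed with the block. So did *THRA*, the other thyroid receptor (0.31, adjusted p = 0.00374 in edgeR, but 0.132 with the GC correction as well), which made 3 of 6 higher with the block against 23.2% of all genes. *PGR*, the progesterone receptor, averaged at most 0.0185 CPM.

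Genes tied to single members were read by family, beside the 11.1% of all genes called higher and 14% called lower without the block and the 23.2% and 22.4% with it. Of 8 tested kinases and partners of *SGK1*, *NDRG1*, an SGK1 substrate, rose (73.1 ± 22.1 to 149 ± 44.4 CPM, 1.03), and the ubiquitin ligase *NEDD4* (-0.55) and the mTORC2 subunit *MAPKAP1* (-0.25) fell, while the SGK1 target *NEDD4L* did not pass (-0.43, adjusted p = 0.272 in edgeR). With the line block *NEDD4L*, lower in 4 of 4 lines, passed (-0.45, adjusted p = 1.63e-05 in edgeR), and so did *NDRG2*, higher in 4 of 4 lines (0.72, adjusted p = 0.000709), which made 2 higher and 3 lower. *NDRG1* kept its call in 5 of the 12 leave-out fits. Of 8 ion transport genes under aldosterone control, 4 were tested and 0 passed in edgeR, DESeq2 or voom (1 lower at an unadjusted p under 0.05 in edgeR, and 1 higher and 1 lower with the block), and the sodium channel subunits *SCNN1B* and *SCNN1G* were listed at 0. In the TSC22 family, *TSC22D4* rose (0.42), a call kept in 2 of the 12 leave-out fits and a value of 0.12 with the block and GC correction. *TSC22D1* (0.17) and *TSC22D2* (-0.19) did not pass in edgeR, while *TSC22D2* passed with the block (adjusted p = 0.0364) and *TSC22D1* with the block and GC correction (0.0242). Of 13 other FK506-binding proteins tested, *FKBP4*, *FKBP14* (-0.48) and *FKBP3* (-0.31, kept in 3 of 12 leave-out fits) fell and 0 rose in edgeR (1 was higher at an unadjusted p under 0.05, and 0 were called higher in DESeq2 or voom). With the block 3 were higher (*FKBP8*, *FKBP9* and *FKBP10*) and 4 lower (*FKBP11* as well), and with the GC correction 0 and 4. Of 13 other Krüppel-like factors tested, *KLF15* rose and *KLF10* (-0.70) and *KLF16* (-0.45) fell. With the block 4 were higher (*KLF3*, *KLF13* and *KLF14* as well) and 3 lower (*KLF5* as well), and with the GC correction 4 and 5. The family members named for their block calls were chosen after their values were seen.

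For each member, the 3 protein-coding genes of most similar profile were found over the 8 libraries, as the smallest root-mean-square (RMS) difference of log2 CPM centred on each gene's own mean. Each was compared with about 11531 genes of at least 100 mean counts, and the likeness is a description. Closest to *FKBP5* were *FHL2* (0.0467), *ZNF92* (0.0525) and *USP37* (0.055), against an RMS spread of 0.265 for *FKBP5* about its own mean. Closest to *NR3C1* were *IL6ST* (0.0453), *ENOX2* (0.0562) and *FEM1B* (0.0563). *KLF9* was closest to *DBN1* (0.0759), *SIPA1* (0.0946) and *BCL9* (0.0946), and *SGK1* to *GPNMB* (0.058), *NOTCH2* (0.0619) and *ACSL4* (0.0775). The low-count members had looser matches, *STAG3* (0.0798), *POLR3GL* (0.119) and *EYS* (0.153) for *NR3C2* and *UBAP1L* (0.205), *PCDHB8* (0.269) and *DRD2* (0.281) for *TSC22D3*.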

How the data were processed

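For 8 libraries of ribosome-depleted RNA the authors deposited integer read counts of each gene, with no normalization. The submitters' processing notes name cutadapt, TopHat2 2.0.11 and HTSeq on GRCh38. The paper's methods name an earlier genome build and Cufflinks, and this difference was not resolved. The annotation release and strand setting are not given in the sources used here, so overlapping genes are uncertain. The count files listed 0 reads without a feature in every library, and the reason was not tested. Count files of WT4 carry another name, so that line rests on its labels.

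Condition and line came from the sample titles. Genes were matched by Ensembl identifier (168 of 169 listed symbols). Gene lengths and GC content came from GENCODE lifted to GRCh37, and positions and promoters from RefSeq GRCh38.p14. The conditions were compared in edgeR 4.0.16 (R 4.3.3) by its quasi-likelihood test (robust glmQLFit), after filterByExpr and TMM scaling, with no block. Benjamini-Hochberg adjustment ran over 17671 genes, with a threshold of 0.05. The method was checked on simulated data. Log2 CPM used a prior count of 2.

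Each line gave 1 library per condition, so the line number pairs them. Their deviations correlated at 0.403 to 0.604, against at most 0.126 between different lines. Alternatives were the line as a block (also with a GC correction, without each line, and with DESeq2 or voom), RLE and upper-quartile scaling, no filter, at least 10 counts in every library, DESeq2 1.42.0, voom in limma 3.58.1, and each library or line left out. Levels per length were repeated with the longest transcript and without TMM.

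Named genes are all members, the 3 genes with the smallest p among those called in each list, every gene of a list of 11 or fewer, and the 3 genes closest in profile to each member. Some genes that the rule names are not reported here. The members and the lists were chosen with earlier results of these data known. Marker lists were used only to check the cells. Of 6 melanocyte lineage markers tested, 1 was called higher and 1 lower in edgeR, and of 3 keratinocyte markers 0 and 1. Of 4 fibroblast markers 1 was called higher and 0 lower, and of 1 immune and 3 endothelial markers 0 were called. Of all genes tested, 11.1% were called higher and 14% lower. These calls compare the conditions and do not identify the cells.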

Additional observations from a re-analysis of the deposited data

Results flagged for a closer look

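In 66 groups of 4 libraries, 5 had a library whose gap to the nearest other exceeded Dixon's 95% critical value, taken as a share of the range, which chance exceeds in about 1 group in 20, or about 3.3 groups here. Among the members, *TSC22D3* was highest in the WT2 serum library, at 2.89 CPM against 0.981 to 1.13 CPM in the other serum libraries (gap ratio 0.923). *NR3C1* was highest in the WT1 serum library, at 131 CPM against 107 to 110 CPM (0.852). *FKBP5* was highest in the WT1 library among those without serum, at 27.7 CPM against 23.3 to 23.9 CPM (0.85), and this library still lay below every serum library. Among the chaperones, *HSPA8* was lowest in the WT4 library without serum, at 1822 CPM against 2469 to 2582 CPM (0.852), and *STIP1* in the WT2 serum library, at 503 CPM against 556 to 565 CPM (0.847).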

How the results depend on the processing

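*FKBP5* kept its direction and its side of the threshold in every alternative. *TSC22D3*, far from the threshold throughout, changed sign under RLE scaling (-0.0054), with no filter (-0.0085), with DESeq2 (-0.0049), with the block and GC correction (-0.0029), under the block without WT3 (-0.11) or WT4 (-0.030), and with the block in voom (-0.11), and ran from -0.21 to 0.53 when libraries or lines were left out. *SGK1* was 0.0048 under upper-quartile scaling and 0.046 with the block and GC correction, and ran from -0.14 to 0.037 when libraries or lines were left out. voom called 1 glucocorticoid-induced gene lower. The causes were not tested.

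With the line as a replicate block, *NR3C1* (-0.15; -0.16 in DESeq2, -0.15 in voom, -0.20 without WT4) and *KLF9* (0.23; 0.22 in DESeq2, 0.23 in voom, 0.22 without WT2, 0.30 without WT4) passed the threshold, and the block changed the call of no other member. With the GC correction as well, *NR3C1* was 0.0035, and *NR3C2* (0.67) and *KLF9* (0.23) passed. Members called higher numbered 1 with the block (also in DESeq2, in voom and without WT2 or WT4) and 2 with the GC correction, and 2 were called lower with the block (also in DESeq2, in voom and without WT4). Of all genes, the block called 4106 higher and 3961 lower against 1957 and 2477 without it, and 3792 and 4300 with the GC correction, 3702 and 3916 in DESeq2, and 4134 and 4027 in voom. Without WT1, WT2, WT3 and WT4 in turn the block called 3107, 3200, 2979 and 4479 higher, and 4459 lower without WT4. Glucocorticoid-induced genes called higher numbered 8 with the block, in DESeq2, in voom and without WT4, 7 without WT3, 6 without WT1 or WT2 and 5 with the GC correction, and those called lower 4 (block, GC correction, voom, without WT4) or 3 (DESeq2, without WT1, WT2 or WT3). Glucocorticoid-repressed genes numbered 3 higher in each block fit and 4 lower, or 5 with the GC correction or without WT3.

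When libraries or lines were left out, genes called higher ran from 620 to 2849 and lower from 969 to 3279, glucocorticoid-induced genes from 2 to 5 higher and 0 to 2 lower, and glucocorticoid-repressed genes from 0 to 2 higher and 0 to 4 lower. Between lines, *NR3C1* passed with DESeq2 (range 0.28), and over the lines left out ran from 0.077 to 0.28. *TSC22D3* passed with no filter (1.08), and *SGK1* ran from 0.078 to 0.42 and lost its call without WT2.

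Depth limits *NR3C2* and *TSC22D3*, with as few as 20 and 32 reads in a library. Intervals from reads cover counting error only. Each line has 1 library per condition, so a difference in response between lines has no replicate.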
